A study of Mus musculus with 2 samples.

Results

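The cells described here were mouse bone marrow cells that had switched on heme and blood group genes while still in the Kit-positive progenitor fraction. They were chosen from the counts themselves, in single-cell RNA sequencing of 1 knock-in and 1 wild-type library. A cell had to hold at least 500 genes and 2000 UMIs, with at most 10% mitochondrial UMIs. A UMI (unique molecular identifier) lets each captured RNA molecule be counted once. It then needed at least 5 UMIs of Car1 (carbonic anhydrase 1) per 10000 of its own UMIs, a scale called CP10k below. It needed under 10 CP10k of the megakaryocyte genes Pf4, Itga2b, Cavin2, Treml1 and Rab27b together, under 50 CP10k of the granule genes Mpo and Elane, and under 5 CP10k of the mast cell genes Cpa3, Ms4a2 and Fcer1a. The last condition was a sum of at least 6 CP10k over Cpox, Rhd and Ermap, called the marker sum below. These conditions left 1068 knock-in and 1011 wild-type cells, 2079 of the 11006 cells that passed the quality filters. They are called maturing erythroid cells here.

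The knock-in library came from mice whose genotype label is GATA-1 mutation Knockin, and the series title names the mutation 2RA without spelling it out. The other library carries the label WT. In both, cells negative for lineage markers and positive for Kit were sorted from bone marrow and run on a droplet 3′ platform. Strain, age, sex, zygosity and the number of animals behind each library are not given in the sources used here. With 1 library per genotype, every difference below is between these 2 libraries, has no replicate check and no test, and each interval covers counting error only.

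GATA-1 is a zinc finger transcription factor that red cell precursors, megakaryocytes, mast cells and eosinophils need. In red cell precursors it replaces GATA-2 at shared binding sites, and the genes for heme enzymes, globins and membrane proteins then come on while stem and progenitor genes go off. The Kit-positive fraction holds the start of that course, since Kit is lost as erythroblasts fill with hemoglobin.

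The knock-in library had 6640 barcodes and the wild-type library 7471, with 48005467 and 70543211 UMIs. After the filters 5480 knock-in and 5526 wild-type cells remained, and 10 barcode sequences occurred in both libraries, none of them in a maturing erythroid cell. Maturing erythroid cells held 17075965 UMIs in the knock-in and 23059246 in wild type. Their median depth was 16417.5 UMIs and 3799.5 genes per cell in the knock-in, against 22919 UMIs and 4398 genes in wild type. Thinned to 2000 UMIs per cell, the median was 998 genes in both. Mitochondrial RNA made up a median of 3.40% of UMIs in knock-in cells and 3.47% in wild-type cells.

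The label was checked against its markers. Cpox (coproporphyrinogen oxidase, a late heme enzyme) stood at 302 CPM (UMIs per 1000000 UMIs of these cells) in the knock-in and 356 CPM in wild type. Rhd, of the Rh blood group, stood at 179 and 247 CPM, and Ermap, an erythroid membrane protein, at 432 and 351 CPM. All 3 were used to choose the cells, so these levels are a description. The 2 markers the choice did not use were also present. Ctse, the protease cathepsin E, stood at 94.9 CPM in knock-in cells and 181 CPM in wild-type cells. Cldn13, a claudin of mouse erythroid tissue, stood at 132 and 135 CPM. After thinning to 5000 UMIs per cell, Cldn13 was found in 42.6% of knock-in and 44.7% of wild-type maturing cells (unthinned, 68.6% and 80.4%). It was found in 0.217% and 0.426% of myeloid cells, whose median depth was 9855.5 UMIs in the knock-in and 11081 UMIs in wild type. Myeloid cells here had at least 50 CP10k of Mpo and Elane together, under 5 CP10k of Car1 and a marker sum under 2 CP10k. Unthinned, a Car1 UMI was still found in 22.0% of the knock-in and 31.3% of the wild-type ones. These cells serve below as the background for shares of cells with a UMI. The defining genes of later erythroblasts were near 0. Alas2, the erythroid enzyme of the first heme step, had 25 UMIs over the maturing knock-in cells and 12 over the maturing wild-type cells. Slc4a1, the band 3 anion exchanger, had 43 and 2 UMIs. For heme genes this check is limited, since Cpox was fixed by the choice of cells and Alas2 did not bear the label out. The other heme genes are described below.

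The promoters of the 3 genes that chose the cells, and of Rhag, are shown because each holds a GATA word, the short sequence that GATA factors bind. The search took the word AGATAA, and with it the words TGATAA, then AGATAG, and last TGATAG, on both strands in the 250 bases before the RefSeq start of transcription (GRCm38.p6). Capitals mark the words, read 5′ to 3′ on the strand of the gene. The windows are chr16:58669958-58670207 on the plus strand for Cpox, chr4:134864286-134864535 on the plus strand for Rhd, chr4:119189996-119190245 on the minus strand for Ermap and chr17:40810899-40811148 on the plus strand for Rhag.
Cpox: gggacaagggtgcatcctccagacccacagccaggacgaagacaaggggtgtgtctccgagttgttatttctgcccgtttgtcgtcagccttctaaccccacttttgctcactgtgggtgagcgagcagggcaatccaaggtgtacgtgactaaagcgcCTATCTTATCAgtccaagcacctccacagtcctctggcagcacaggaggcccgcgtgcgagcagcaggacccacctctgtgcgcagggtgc
Rhd: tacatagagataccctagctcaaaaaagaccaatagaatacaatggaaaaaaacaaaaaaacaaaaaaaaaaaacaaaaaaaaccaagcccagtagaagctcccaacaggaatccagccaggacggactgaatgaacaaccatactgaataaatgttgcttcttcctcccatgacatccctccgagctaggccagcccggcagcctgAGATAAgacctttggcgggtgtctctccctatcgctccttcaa
Ermap: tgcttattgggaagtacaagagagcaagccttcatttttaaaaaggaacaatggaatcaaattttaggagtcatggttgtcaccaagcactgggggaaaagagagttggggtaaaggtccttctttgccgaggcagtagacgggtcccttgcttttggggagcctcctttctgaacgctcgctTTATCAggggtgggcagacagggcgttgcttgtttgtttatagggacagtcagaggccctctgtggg
Rhag: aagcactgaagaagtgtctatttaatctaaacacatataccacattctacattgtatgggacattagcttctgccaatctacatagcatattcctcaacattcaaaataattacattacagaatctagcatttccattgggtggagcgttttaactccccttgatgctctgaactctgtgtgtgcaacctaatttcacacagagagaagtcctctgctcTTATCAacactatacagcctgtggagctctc
The Cpox window holds 2 words that overlap by 1 base, CTATCT and TTATCA, which begin 91 and 86 bases before the RefSeq start. That start is uncertain, since the 25 bases that follow it were not found in the GENCODE transcripts of Cpox, whose annotated gene begins further on, at 58670292. Rhd has AGATAA 43 bases before the start, Ermap has TTATCA at 67 bases and Rhag has TTATCA at 31 bases. Of the 7829 genes measured here with a promoter in the table, 16.5% held such a word in the same window. The share was 7 of 12 for blood group and surface genes, 4 of 6 for membrane skeleton genes, 3 of 13 for early erythroid genes, 1 of 11 for heme synthesis genes and 1 of 12 for genes that GATA-1 lowers during maturation. The heme gene was Cpox. The windows of Ppox and Gata2, both described below, hold none of these words. A word is a match of letters, not a measured binding site.

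Maturing erythroid cells were about as large a share of each library. They made up 19.5% (18.4 to 20.6, exact Clopper-Pearson 95% interval) of the filtered knock-in cells and 18.3% (17.3 to 19.3) of the filtered wild-type cells. Among cells that met every condition except the marker sum, the share was lower in the knock-in, at 41.6% (39.7 to 43.5) of 2567 cells against 47.4% (45.3 to 49.6) of 2131 wild-type cells. Those Car1-positive cells were themselves a larger part of the knock-in library, 46.8% against 38.6% in wild type. Both comparisons moved with the settings. Among cells of at least 5000 UMIs, maturing cells were 31.5% of filtered cells in the knock-in and 22.2% in wild type, and 55.0% and 55.6% of Car1-positive cells. With a marker sum of 10 CP10k or more as the limit, they were 5.07% and 6.17% of filtered cells, the opposite order, and 10.8% and 16.002% of Car1-positive cells.

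The lower limit of the marker sum cuts through a continuous distribution. Between 5 and 6 CP10k, just outside the limit, lay 243 knock-in and 176 wild-type cells. Between 6 and 7 CP10k, just inside it, lay 224 and 162. The median marker sum of maturing erythroid cells was 8.44 CP10k in the knock-in, with a highest cell of 34.3, and 8.93 CP10k in wild type, with a highest cell of 22.2. Since a cell could be placed by few molecules, the median cell was chosen on 14 UMIs of the 3 genes in the knock-in and on 21 in wild type.

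**Figure D1:**
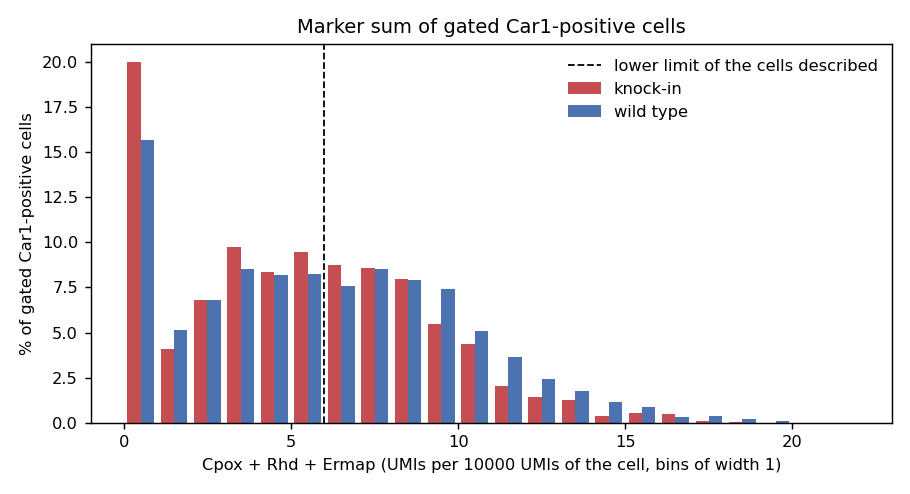
Percent of gated Car1-positive cells (vertical axis) in each 1 CP10k bin of the marker sum Cpox + Rhd + Ermap (horizontal axis), knock-in beside wild type. The dashed line at 6 CP10k is the lower limit of the cells described, which held 41.6% of knock-in and 47.4% of wild-type cells, and no gap separates them from the rest.

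Levels in the 2 libraries were compared for 9967 genes with at least 50 UMIs over both sets of maturing cells. Each ratio divides the knock-in level by the wild-type level and is given as its log2, with a 95% interval in brackets. A gene is called higher or lower where its CPM differed by at least 1.5-fold. Over all genes the median ratio was 0.05, with 770 genes (7.73%) higher and 461 genes (4.63%) lower in the knock-in. These percentages are the background for every count below. Gata1, the targeted gene (chromosome X, 7959260 to 7978071, minus strand, mm10), had 153 CPM in the knock-in and 150 CPM in wild type, a ratio of 0.02 (-0.05 to 0.10). A 3′ count does not show whether these transcripts carry the mutation.

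Depth per cell differed between the libraries, so each ratio was also taken in cells of 5000 to 15000 UMIs, 335 in the knock-in and 129 in wild type. The genes described below as differing by 1.5-fold whose ratio then came under that size were Abcb10 (-0.09), Rhag (-0.35), Ctse (-0.53), Hemgn (-0.43), Add2 (-0.46), Sod1 (-0.47), Dck (-0.34), Myb (0.33), Hhex (0.42), Junb (0.25), Bcl2 (0.14), Cdkn2d (0.10), Pink1 (0.26) and Cited2 (0.57), with the signs unchanged. Egr1 and Ier2, of the immediate early list, changed sign. Gata2 (0.84), Lmo4 (2.03), Ppox (-0.91) and Pnp (-1.60) stayed past 1.5-fold. The part of depth in these results was not tested beyond this.

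Heme synthesis runs from glycine and succinyl-CoA to the insertion of iron into protoporphyrin, partly inside mitochondria. Of 14 genes listed, 13 were measured, among them Cpox, which was used to choose the cells. Their median ratio was -0.23, 11 of the 13 had a ratio under 0, 2 were lower by 1.5-fold and none was higher. Both of the lower genes act in or at the mitochondrion. Ppox, which oxidises protoporphyrinogen in the step after Cpox, had 19.7 CPM in the knock-in and 45.1 CPM in wild type, a ratio of -1.20 (-1.38 to -1.02). Abcb10, a transporter of the inner membrane that erythroid heme production needs, had 19.1 and 37.3 CPM, a ratio of -0.96 (-1.15 to -0.78). Thinned to 5000 UMIs per cell, Ppox was found in 7.59% (6.01 to 9.43) of knock-in and 20.8% (18.3 to 23.5) of wild-type maturing cells; unthinned, in 25.2% and 59.0%. The same thinned share was 3.69% and 6.32% in the myeloid cells, which also make heme. Knock-in levels of Ppox were the lower ones in all 7 bins of the marker sum, also in the cells under 2 CP10k, where the ratio was -0.84.

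The abundant heme genes were closer together. Tmem14c, which brings protoporphyrinogen into mitochondria, had 491 CPM in the knock-in and 642 CPM in wild type, a ratio of -0.39 (-0.42 to -0.35). Alad, the aminolevulinate dehydratase of the cytosol, had 239 and 267 CPM. Urod had 156 and 174 CPM, and Fech, the ferrochelatase that inserts iron, had 67.4 and 76.4 CPM. None of these 4 genes differed by 1.5-fold. Slc25a38, the mitochondrial glycine carrier, had 40.9 and 50.7 CPM and Uros, the enzyme before Urod, 18.5 and 24.8 CPM. In cells of 5000 to 15000 UMIs the median ratio of the list was above 0, at 0.07, so the small shift of the list as a whole does not hold at every depth. Ppox stayed between -1.24 and -0.91 in all 18 alternatives.

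Globin RNA was low and uneven. The 4 adult globin genes together had 5001 UMIs in the knock-in cells and 1351 in the wild-type cells, which is 293 and 58.6 CPM. All 4 were higher in the knock-in when all cells were summed. Hba-a1 had 133 and 34.0 CPM, a ratio of 1.97 (1.85 to 2.09), and Hbb-bs had 73.2 and 7.29 CPM, a ratio of 3.33 (3.095 to 3.57). The excess was not particular to maturing cells. Ratios of Hba-a1 and Hbb-bs were 4.94 and 7.86 in Car1-positive cells of 2 to under 6 CP10k. They were 2.58 and 2.81 in those under 2 CP10k and 2.63 and 3.36 in myeloid cells, from few UMIs. A pair of knock-in cells, with 1550 and 1245 globin UMIs, held 2795 of the 5001; the top pair of wild-type cells held 88 of 1351. Without the top pair of each library, an alternative added after the data were seen, the sums were 129 CPM in the knock-in and 54.9 CPM in wild type, and the ratios of Hba-a1 and Hbb-bs were 1.09 and 1.84. Hbb-bt had 53.6 CPM in the knock-in and 8.93 CPM in wild type, a ratio of 2.58, and 2 cells held 582 of its 915 knock-in UMIs. In cells of 6 to under 12 CP10k its ratio was 0.098, which is under 1.5-fold. Over the 18 alternatives the median ratio of the globins ranged from 0.78 to 4.42, Hba-a1 from 0.76 to 4.19 and Hbb-bs from 1.04 to 5.52. Any globin UMI was found in 50.7% of knock-in and 43.3% of wild-type maturing cells. At 5000 UMIs per cell, Hbb-bs was found in 6.15% (4.73 to 7.85) of knock-in maturing cells and in 7.59% (5.34 to 10.4) of knock-in myeloid cells, so that share is no higher than background (unthinned, 15.1% and 14.3%). In wild type it was found in 3.15% of maturing cells and 0.497% of myeloid cells. Hba-a1 was above that background in both libraries, in 16.5% of knock-in and 11.2% of wild-type maturing cells against 1.74% and 0.284% of myeloid cells (unthinned, 32.2% and 33.6% of maturing cells). The embryonic genes Hbb-bh1 and Hbb-y had 0 UMIs in all maturing cells. Hba-a1 and Hba-a2, and likewise Hbb-bs and Hbb-bt, are near-identical copies whose reads can be split between them by the counting.

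The Rh complex and its partners sit in the red cell membrane and carry the Rh blood group. Of 17 blood group and surface genes, 15 were measured, with a median ratio of 0.03, 1 lower and none higher. The lower gene was Rhag, the glycoprotein that anchors the Rh proteins, with 59.3 CPM in the knock-in and 103 CPM in wild type, a ratio of -0.79 (-0.90 to -0.69). It was found in 23.6% of knock-in and 37.9% of wild-type cells at 5000 UMIs, against 0.217% and 0.497% of myeloid cells (unthinned, 52.4% and 80.6% of maturing cells). Kel, the Kell antigen, had a ratio of -0.53 (-0.68 to -0.39). Rhd and Ermap, at -0.46 and 0.30, are 2 of the 3 genes whose sum chose the cells, so their ratios are a description and bear on nothing else here. Cd47, the signal that keeps macrophages from engulfing a cell, had 590 CPM in the knock-in and 445 CPM in wild type, a ratio of 0.41 (0.37 to 0.45). Among the genes not used in the choice, Rhag and Kel thus stood below 0 and Cd47 above it.

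The membrane skeleton is the protein mesh under the red cell surface. Of 12 genes 10 were measured, with a median of 0.01. Add2, beta adducin, which caps actin at the junctions of the mesh, had 56.0 CPM in the knock-in and 89.6 CPM in wild type, a ratio of -0.68 (-0.79 to -0.57). Ank1, the ankyrin that ties the mesh to the membrane, had 40.6 and 49.3 CPM.

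**Figure D2:**
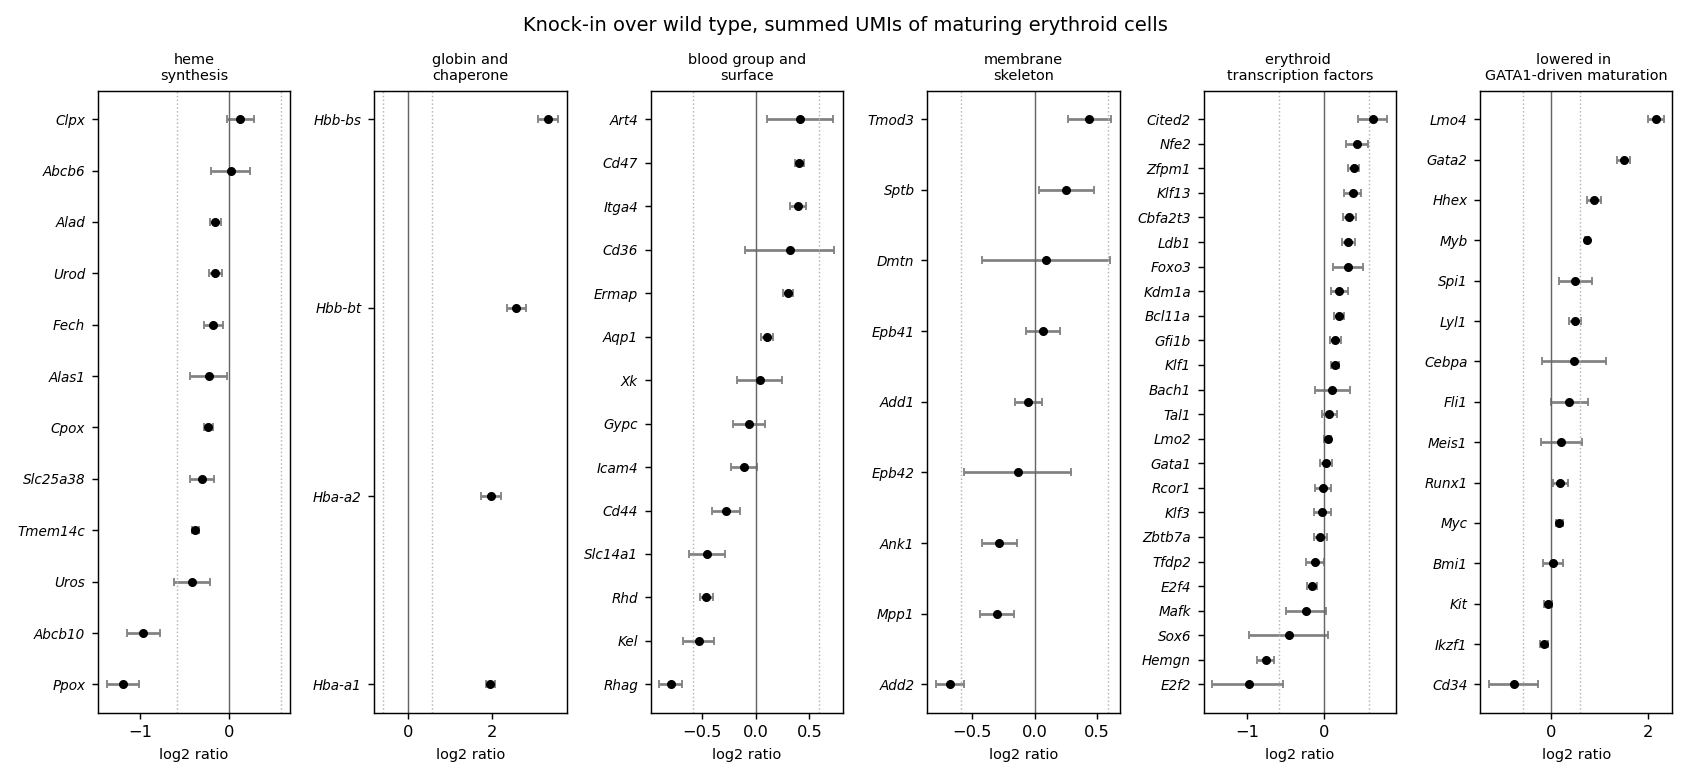
Log2 ratio of summed CPM, knock-in over wild type, in maturing erythroid cells for measured genes of 6 lists (panels, with their own horizontal scales); bars are 95% counting intervals and dotted lines mark 1.5-fold. Ppox (-1.20) and Abcb10 (-0.96) stand below the other heme genes, the 4 globins above 1.5-fold, and Lmo4 (2.17), Gata2 (1.498), Hhex (0.88) and Myb (0.74) above it in the last panel.

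Iron genes were close to equal. Of 17 iron handling genes and 15 iron-sulfur cluster genes measured, none was higher or lower by 1.5-fold, and the median ratio was -0.08 for each list. Fth1, the ferritin heavy chain that stores iron, had 3114 CPM in the knock-in and 3508 CPM in wild type. Tfrc, the transferrin receptor through which erythroid cells take up iron, had 105 and 127 CPM, a ratio of -0.28 (-0.37 to -0.20). Tfr2, which associates with the erythropoietin receptor, had 98.5 and 67.9 CPM, a ratio of 0.54 (0.44 to 0.64).

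Most erythroid transcription factor genes were level while several progenitor regulators were higher in the knock-in. Of 24 erythroid factors, all measured, 1 was higher and 2 were lower, with a median of 0.09. Klf1, the Krüppel-like factor of beta globin, had 328 CPM in the knock-in and 297 CPM in wild type. Zfpm1, which encodes the GATA-1 partner FOG-1, had 197 and 151 CPM, a ratio of 0.38 (0.32 to 0.45). Hemgn, a nuclear protein of erythroid and stem cells, was lower, at 53.9 and 91.3 CPM, a ratio of -0.76 (-0.87 to -0.65). E2f2, the E2F of terminal erythroid division, had only 56 and 149 UMIs, a ratio of -0.98 (-1.45 to -0.53). Cited2 had 28.5 and 18.4 CPM, a ratio of 0.63 (0.44 to 0.82).

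Among genes that are turned down as GATA-1 drives maturation, 15 of 16 were measured. Of these 4 were higher and 1 was lower, with a median of 0.37. Gata2 (chromosome 6, 88193891 to 88207032, plus strand), the GATA factor of stem and progenitor cells, had 71.8 CPM in the knock-in and 25.4 CPM in wild type, a ratio of 1.498 (1.36 to 1.64). At 5000 UMIs per cell Gata2 was found in 31.2% (28.3 to 34.2) of knock-in and 12.4% (10.4 to 14.6) of wild-type maturing cells, against 8.03% and 4.55% of myeloid cells; unthinned, in 61.2% and 36.9% of maturing cells. Myb, a regulator that holds progenitors in cycle, had 487 and 292 CPM, a ratio of 0.74 (0.69 to 0.79). Lmo4, a LIM adaptor protein, had 76.9 and 17.1 CPM, a ratio of 2.17 (2.00 to 2.33), and Hhex had 56.4 and 30.6 CPM, a ratio of 0.88 (0.74 to 1.02). The lower gene was Cd34, at 2.81 and 4.81 CPM. Kit itself did not differ by 1.5-fold, at 118 and 124 CPM, nor did the stem cell factor Meis1, at 5.21 and 4.51 CPM.

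Gata2 declined along the marker sum in both libraries and was above wild type in the knock-in throughout. It had 356 CPM in knock-in Car1-positive cells under 2 CP10k, 112 CPM at 4 to 6 CP10k and 47.1 CPM at 12 CP10k or more. In wild type the same 3 bins had 241, 51.9 and 15.5 CPM. The ratio between libraries was 0.56 in the cells under 2 CP10k and 1.498 in maturing cells. Myb had 849 CPM in the first bin and 423 CPM in the last in the knock-in, and 646 and 218 CPM in wild type. Lmo4 had 147 and 69.9 CPM in the knock-in, and 68.9 and 12.4 CPM in wild type. For all 3 genes the last knock-in bin lay above the wild-type level at 6 to 8 CP10k, which was 37.7 CPM for Gata2, 336 CPM for Myb and 22.9 CPM for Lmo4.

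**Figure D3:**
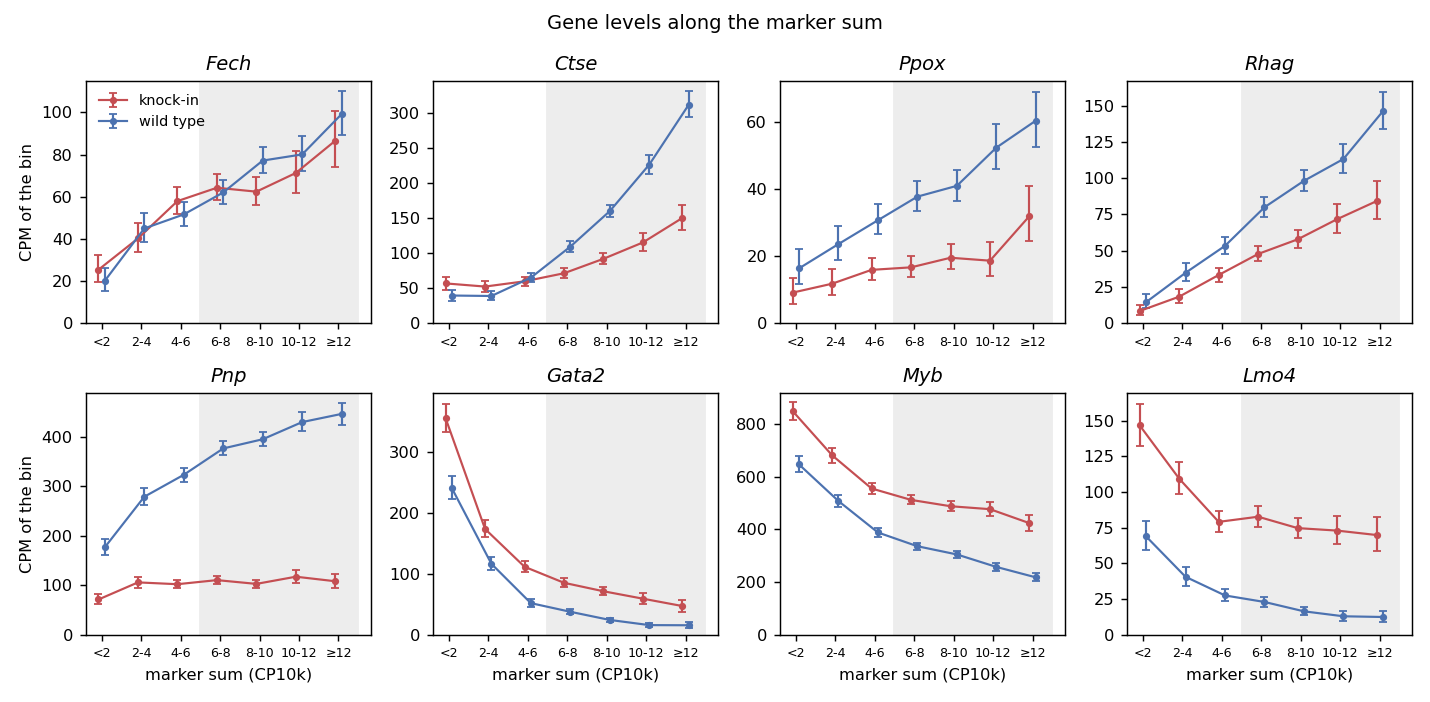
CPM of 8 genes (vertical axes, each from 0) in bins of the marker sum in CP10k (horizontal axis), knock-in and wild type; bars are 95% Poisson intervals of counting error and grey marks the maturing erythroid cells. Ctse, Ppox, Rhag and Pnp lie lower in knock-in cells in each grey bin, Gata2, Myb and Lmo4 higher in each bin, and Fech crosses.

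Ctse showed a smaller climb in the knock-in. It had 56.7 CPM under 2 CP10k and 150 CPM at 12 CP10k or more in the knock-in, against 39.4 and 312 CPM in wild type. Maturing cells over cells under 2 CP10k gave a ratio of 0.74 (0.50 to 0.99) in the knock-in and 2.20 (1.92 to 2.49) in wild type. Among maturing cells the ratio of the knock-in to wild type was -0.93 (-1.01 to -0.85). At 5000 UMIs Ctse was found in 33.1% (30.2 to 36.2) of knock-in and 49.4% (46.3 to 52.6) of wild-type cells, against 1.30% and 1.56% of myeloid cells; unthinned, in 63.7% and 82.9% of maturing cells. Of 17 early erythroid genes measured, Ctse and Hemgn were lower and Vamp5, a vesicle fusion protein, was higher, at 796 and 463 CPM. Carbonic anhydrase Car2 had 3562 and 3333 CPM. Of 17 late erythroid genes measured, 6 were higher and 1 was lower, and 4 of the 6 were the globins.

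Maturing cells were set against Car1-positive cells under 2 CP10k, which is the contrast the choice of cells used. The cells under 2 CP10k were shallower, at a median of 3273.5 UMIs in the knock-in and 4912 UMIs in wild type. For maturing cells it was 16417.5 and 22919 UMIs. The median cell under 2 CP10k held 0 UMIs of the 3 marker genes, so shallow depth can place a cell there. The part of depth in this contrast was not tested. About as many genes were higher and lower in each library. In the knock-in 1831 of 9416 genes (19.4%) were higher and 2185 (23.2%) lower in maturing cells. In wild type 1864 of 9587 genes (19.4%) were higher and 2423 (25.3%) lower. Genes are named here for a large ratio in both libraries. Among the highest were Tmem56, with ratios of 5.43 in the knock-in and 4.47 in wild type, Nxpe2 with 4.05 and 4.47, Cldn13 with 3.74 and 3.90, Sphk1 (sphingosine kinase 1, which makes the lipid signal sphingosine 1-phosphate) with 3.48 and 4.21, and the copper transporter Atp7b with 4.92 and 4.16. The lowest included Ctla2a (-4.91 and -5.35), vimentin, Vim (-4.53 and -4.95), Ifitm1 (-4.23 and -5.30) and the AP-1 gene Fos (-3.89 and -3.91). Of 43 G2 and M phase genes, 36 were higher in maturing cells in the knock-in and 34 in wild type, with none lower in either. Heme synthesis genes had 9 of 13 higher in the knock-in and 10 of 13 in wild type. The values describe the step and are not a test of it.

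Some genes differed between libraries in that step. Map4k1, a kinase of blood cells, was lower in maturing cells in the knock-in, with a ratio of -1.76 (-2.09 to -1.41), and higher in wild type, at 0.56 (0.27 to 0.86). Cnn3 (calponin 3) had 0.84 and 2.80. The tetraspanin Cd63 had -0.91 in the knock-in and -2.56 in wild type, and Fkbp11 had 1.18 and -0.47. Cd63 stood at 74.5 CPM in knock-in and 16.9 CPM in wild-type maturing cells. The difference between the libraries' ratios has no test.

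**Figure D4:**
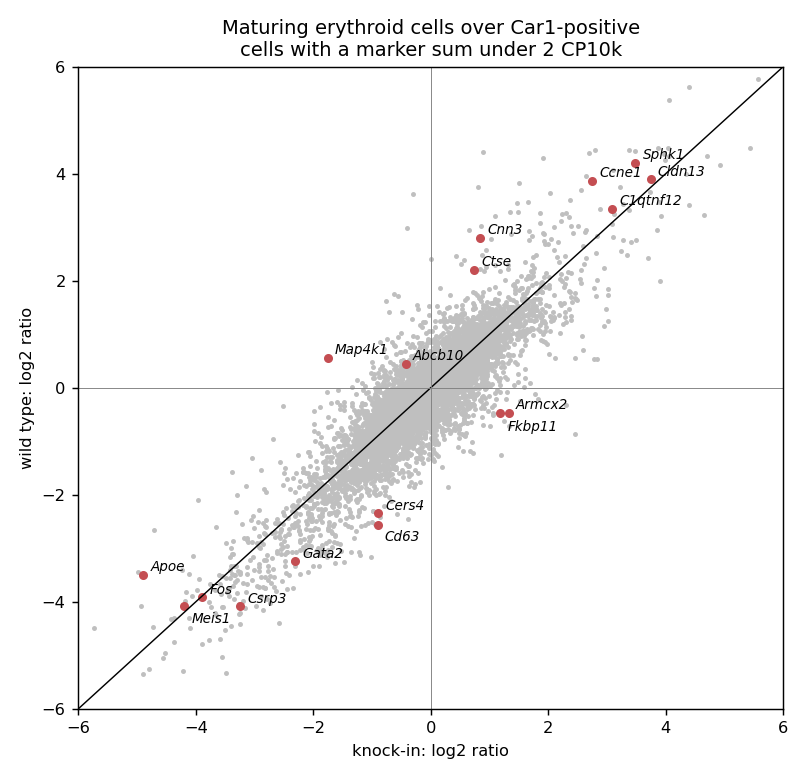
Log2 ratio of CPM, maturing erythroid cells over Car1-positive cells with a marker sum under 2 CP10k, in the knock-in (horizontal axis) and in wild type (vertical axis), one point per gene with at least 50 UMIs in that library's 2 cell sets and none at 0; named genes are red and the line marks equal ratios. Cldn13, Sphk1 and C1qtnf12 lie high in both, Ctse (0.74 and 2.20) lies above the line, and Map4k1 (-1.76 and 0.56) has opposite signs.

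Cell cycle genes differed little. Of 38 S phase genes measured, 1 was lower and none higher, with a median of -0.14, and of 43 G2 and M phase genes none differed by 1.5-fold, with a median of -0.08. The lower gene was Ccne1, the cyclin of the G1 to S step, at 63.2 CPM in the knock-in and 116 CPM in wild type, a ratio of -0.87 (-0.98 to -0.77). Mki67, a proliferation marker, had 388 and 366 CPM. Among 3 measured CDK inhibitors Cdkn2c (p18) was lower, at -0.63 (-0.92 to -0.35), and Cdkn2d (p19), at 0.76 (0.49 to 1.03), was higher. The 2 inhibitors that differed lay on opposite sides.

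The p53 protein turns on genes of growth arrest and cell death after damage. Among 13 measured p53 targets 3 were higher and none lower, led by Phlda3, an inhibitor of Akt, at 17.5 CPM in the knock-in and 7.03 CPM in wild type with a ratio of 1.32 (1.04 to 1.60). Bbc3, the death gene Puma, had 7.496 and 4.12 CPM, a ratio of 0.86 (0.47 to 1.26). A further 7 listed targets, among them Cdkn1a, Gdf15 and Fas, had too few UMIs to be measured. Of 10 measured genes of the BCL2 family, a list that also holds Bbc3, 2 were higher and none lower. These 2 were Bbc3 again and Bcl2. Bcl2, a member of that family which protects from death, had 8.02 and 5.03 CPM, a ratio of 0.67 (0.31 to 1.04).

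Of the 14 measured genes of erythropoietin and Kit signalling, 3 were higher and 1 was lower. Pim1, a survival kinase induced by cytokines, had 30.8 CPM in the knock-in and 17.6 CPM in wild type, a ratio of 0.81 (0.617 to 0.997). Lyn, a Src family kinase, had 18.8 and 11.2 CPM, a ratio of 0.75 (0.51 to 0.99). Epor, the erythropoietin receptor, had 90.5 and 91.5 CPM, a ratio of -0.01 (-0.11 to 0.08). The adaptor Gab1 was the lower gene, with 50 and 152 UMIs. Neither Epor nor Kit differed by 1.5-fold, and the 4 genes that did act behind receptors.

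Purine and nucleotide synthesis had 22 measured genes with a median of 0.02, of which 3 were lower. Pnp, the purine nucleoside phosphorylase, had 109 CPM in the knock-in and 404 CPM in wild type, a ratio of -1.89 (-1.97 to -1.82). Its neighbour and near copy Pnp2 had 0 UMIs in the knock-in and 503 in wild type. Pnp was lower in the knock-in in the cells under 2 CP10k as well, at -1.31. Reads of the 2 copies can be split by the counting. Among 19 redox genes 1 was lower, Sod1 (superoxide dismutase), with a ratio of -0.69 (-0.77 to -0.61), and among 17 glycolysis genes Eno1 (enolase 1) was lower, at -1.13 (-1.22 to -1.03), and Ldhb, a lactate dehydrogenase subunit, was higher, at 0.590. Ldhb stood at the edge of 1.5-fold and came under it, at 0.546, with TMM scaling and, at its lowest, 0.487, at a marker sum of 4 CP10k. The unfolded protein response had none of 15 measured genes past 1.5-fold.

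The 12 genes farthest apart in each direction held both beta globins and otherwise genes of varied roles. Ccnb1ip1, a ubiquitin ligase known from meiosis, had 43.5 CPM in knock-in and 1.43 CPM in wild-type cells, a ratio of 4.93 (4.42 to 5.48). Hes1, a repressor downstream of Notch, had 28.5 and 1.21 CPM, a ratio of 4.55 (4.001 to 5.16). Apoe, the lipid carrier apolipoprotein E, had 1.99 and 142 CPM, a ratio of -6.15 (-6.68 to -5.67). These genes are near absent in 1 library and readily found in the other: at 5000 UMIs Ccnb1ip1 was found in 19.8% of knock-in and 0.711% of wild-type cells, and Apoe in 1.54% and 35.5%. Unthinned, the shares were 42.5% and 3.17% for Ccnb1ip1 and 2.996% and 63.9% for Apoe, and in thinned myeloid cells they were 0.868% and 1.07% for Ccnb1ip1 and 0.868% and 18.8% for Apoe. Gm42047, a lincRNA, and Pnp2 had 0 UMIs in the knock-in, which with a floor of 3 UMIs puts their ratios at or below -7.27 and -6.96. The other higher genes were Inpp4b, Slc7a8, Hbb-bs, Gm26825, Cers4, Rem2, Csrp3, Armcx2, Lyplal1 and Hbb-bt. In the knock-in, 2 cells held 821 of the 1250 UMIs of Hbb-bs and 582 of the 915 of Hbb-bt. The other lower genes were Hist1h2ap, Rpgrip1, Gml2, Gm10076, Acsl6, Gstp1, Slc1a5, H2-Q6 and Slpi. Of the 24 genes 6 lie on chromosome 14, 5 on chromosome 7 and 3 on chromosome 8. Those on chromosome 14 include Ccnb1ip1, Pnp2, Rpgrip1, Rem2 and Slc7a8, all between bases 50789248 and 54781946. Those on chromosome 7 include both beta globins. The shares of all measured genes on these chromosomes are not given here, so the counts are a description and show no excess. Some of these gaps were not particular to maturing cells. In myeloid cells the ratio was -3.23 for Gm10076, -3.58 for Hist1h2ap, -3.28 for Gstp1, 2.93 for Inpp4b and 3.85 for Gm26825. Ccnb1ip1 (-0.11, -1.17 to 0.84) and Rem2 (-1.31, -6.78 to 1.59) were below 0 there, with intervals that span 0. Gml2 and Acsl6 had 0 knock-in and 2 wild-type UMIs there, too few to give a sign. The remaining genes kept their sign, Hes1 and Slc7a8 with intervals that span 0. Hist1h2ap, Gstp1 and H2-Q6 belong to families of near-identical genes and their counts are uncertain for that reason.

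**Figure D5:**
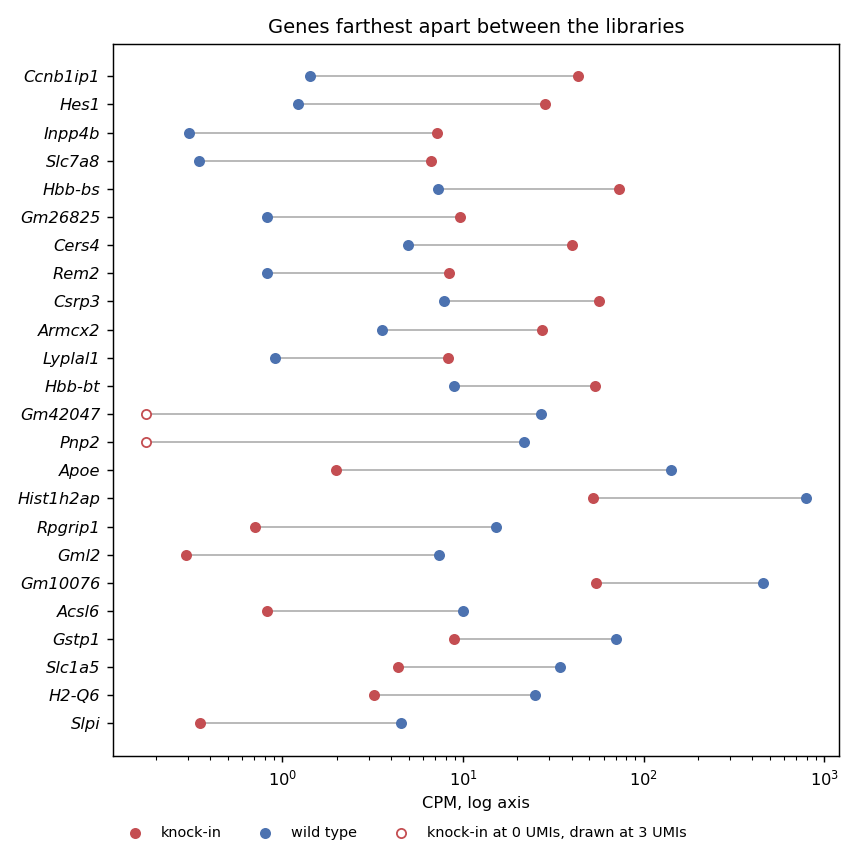
CPM on a log axis in maturing erythroid cells of the knock-in and wild type for the 12 genes in each direction whose ratio interval lies farthest from 0; open circles are knock-in values of 0 UMIs drawn at 3 UMIs. Ccnb1ip1 (43.5 and 1.43 CPM) heads the genes higher in the knock-in and Apoe (1.99 and 142 CPM) is among those lower.

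Short transcripts made up a larger part of the lower genes than of all genes. Of 114 measured genes whose longest transcript is under 600 bases, 36.0% were lower and 15.8% higher, and they made up 8.93% of the lower genes against 1.14% of all measured genes. Hist1h2ap (482 bases) had 52.3 CPM in the knock-in and 792 CPM in wild type, and Gm10076 (384 bases) had 54.8 and 457 CPM. All 3 lower genes among 13 mitochondrially encoded ones, mt-Nd3, mt-Nd4l and mt-Atp8, are of that length, and 10 of 80 ribosomal protein genes were lower with none higher. Transcript length moved with the result, and its part was not tested.

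Among the lists of other lineages, the granulocyte and monocyte list had the largest sum in wild type and the stem list in the knock-in. The choice of cells also limited megakaryocyte and mast cell genes from above. The low sums of those lists, and the level of Ms4a2, were thus in part set by it. The granulocyte and monocyte list summed to 114 CPM in knock-in and 425 CPM in wild-type maturing cells, with all 10 measured members (of 17) lower and a median of -1.92. Mpo (myeloperoxidase) had 33.4 and 135 CPM, and the protease gene Elane 19.8 and 88.1 CPM, both limited from above by the choice of cells. Any UMI of Mpo or Elane was found in 46.3% of knock-in and 91.9% of wild-type maturing cells. The same list summed to 28599 CPM in the knock-in and 30899 CPM in wild type in the myeloid cells, of which the filtered libraries held 510 and 1461. The mast and basophil list summed to 50.2 and 27.6 CPM with 4 of 12 genes measured, and Ms4a2, the beta chain of the IgE receptor, had 4.39 and 0.48 CPM. The remaining lists were the megakaryocyte (34.2 and 35.6 CPM, 6 of 17 measured), lymphoid (12.9 and 12.4 CPM, 2 of 17), stem (127 and 123 CPM, 10 of 16), macrophage (43.7 and 50.7 CPM, 2 of 12) and eosinophil lists (0.117 and 0.434 CPM, 0 of 6). The list members Ppbp, Gp6, Tpsab1, Epx, Rag1, Pax5, Vcam1 and Ltf had 0 UMIs in both libraries. They are named because they were at 0, and all their lists but the eosinophil one had other members that were measured. The part of RNA from other cells in the differences above was not tested.

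Interferon response genes leaned lower, and the median of immediate early genes changed sign between alternatives. Of 18 interferon genes measured, 6 were lower and 2 higher, with a median of -0.37. Bst2, the antiviral protein tetherin, had 40.1 CPM in the knock-in and 98.4 CPM in wild type, a ratio of -1.30 (-1.42 to -1.17), and Oas1a had 1.99 and 6.68 CPM. At a marker sum of 10 CP10k or more the median of the list was 0.03. Immediate early genes are switched on within minutes of a signal to the cell. Here 14 were measured, of which 5 were lower and 4 higher. The median ratio of the 14 was 0.04, and it ranged from -0.66 to 0.26 over the 18 alternatives. Fos had 37.4 and 63.5 CPM, while Junb, its AP-1 partner, had 66.0 and 31.6 CPM and Ier3 had 19.6 and 5.03 CPM. The lowest median was that of cells of 5000 to 15000 UMIs, where Junb was at 0.25 and Egr1 and Ier2 were below 0.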

How the data were processed

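Raw counts of UMIs for each gene in each barcode were deposited by the authors, who made them with Cell Ranger 3.1.0, per the file headers, on build mm10, per the submitters' processing notes. How barcodes were called is not given in the sources used here; the smallest total in each file was 500 UMIs, and the labels name a v2 reagent kit. Counts were read in Python 3.11.15 with scipy 1.17.1 and pandas 2.3.3. Cells were filtered and chosen as the opening states, counts were summed per library, and CPM used the sum over the chosen cells. Ratios carry exact conditional binomial intervals, sums Poisson and shares Clopper-Pearson intervals; the script was tested on simulated counts. There was 1 library per genotype, so no test across samples was made, and PCR or handling error is not covered. Myeloid cells, as a background set, held 510 knock-in and 1461 wild-type cells. GENCODE M21 (mm10) gave positions and transcript lengths for 30934 of 31053 gene IDs, and RefSeq the promoters. Background RNA was not removed. Doublets were not removed: scanpy 1.11.5's Scrublet marked 0.292% of filtered knock-in cells, under 0.5%, so its call was not used, and 3.06% of wild-type cells. Leaving out the highest 5% of scores was an alternative.

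Genes named were Gata1, Gata2, the genes of the choice and its markers; the 12 genes in each direction whose ratio bound lay farthest from 0, with 100 or more UMIs in the higher library; up to 4 most abundant members and the members past 1.5-fold of each list described; the 10 in each direction of maturing over low cells; and the 5 in each direction whose ratio differed most between libraries. The text gives part of them, and some measured genes are not reported here. Some list members are named beside these for their role, chosen after their values were seen. The cells, the 35 lists and the rules were chosen with earlier results of these data known. TMM factors came from edgeR 4.0.16.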

Additional observations from a re-analysis of the deposited data

Results flagged for a closer look

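Genes with opposite signs in the libraries, in the ratio of maturing erythroid cells over Car1-positive cells with a marker sum under 2 CP10k, were set aside as worth a closer look. The choice of cells used that contrast, each genotype has 1 library, and the difference was not tested. Cells under 2 CP10k, called less mature below, were also shallower than maturing cells. Their median depth was 3273.5 UMIs in the knock-in and 4912 UMIs in wild type.

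Abcb10 had a log2 ratio of -0.43 in the knock-in and 0.45 in wild type. Its levels in the knock-in were 19.1 CPM in maturing cells and 25.7 CPM in the cells under 2 CP10k. In wild type they were 37.3 and 27.3 CPM, so the libraries were close in the less mature cells.

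Map4k1 had -1.76 in the knock-in and 0.56 in wild type. Its levels were 12.5 and 42.3 CPM in knock-in and 56.9 and 38.6 CPM in wild-type cells, again close in the less mature cells.

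D11Wsu47e had 1.01 in the knock-in and -0.72 in wild type, from 12 and 32 UMIs in the less mature cells. Cd74, the invariant chain of MHC class II, had 1.18 in the knock-in, where the less mature cells had 0 UMIs and were put at a floor of 3, and -3.71 in wild type, from 8 UMIs in maturing and 12 in less mature cells. Lmo2, a partner of GATA-1 in the erythroid complex, had 0.14 in the knock-in and -0.24 in wild type, at 339 and 328 CPM in maturing cells.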

How the results depend on the processing

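No paired analysis was possible because each genotype has 1 library. In all, 16 alternatives were planned and 2 were added after the data were seen. The log2 ratio of the share of filtered cells was 0.09; it was -0.28 at a marker sum of 10 CP10k and 0.51 among cells of 5000 or more UMIs. For the share of Car1-positive cells the main ratio was -0.19, against -0.56 and -0.02 (-0.016) under the same settings. The 770 higher and 461 lower genes became 2789 and 1808 with 1 or more UMIs, and 374 and 257 with 200 or more, and 430 genes were higher at a marker sum of 12 or more. TMM and median scaling shifted all ratios by -0.04.

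Of 34 lists 23 had a median that changed sign under 1 or more alternatives. In 17 of them the main median was under 0.2 in size; the widest of these ranges were those of the immediate early list (-0.66 to 0.26), CDK inhibitors (-0.27 to 0.44), the stem list (-0.12 to 0.57) and the membrane skeleton (-0.10 to 0.41). The other 6 were the megakaryocyte list (-0.11 at a marker sum of 4, -0.049 after thinning, -1.22 in cells of 5000 to 15000 UMIs), the lymphoid list (-0.038 at 10 CP10k, -0.070 at 200 UMIs, -0.87 in cells of 5000 to 15000 UMIs), the interferon list (0.031 at 10 CP10k), the macrophage list (0.43 at 1 UMI) and, in cells of 5000 to 15000 UMIs, heme synthesis (0.072) and MHC class II (-0.057). In those cells Egr1 and Ier2 were at -0.95 and -0.16, and by mean CP10k Hdc was at 0.25. The cause was not tested. Gata2 ranged from 0.84 to 1.80, Ctse from -1.05 to -0.53 and Rhag from -0.85 to -0.35 over the 18 alternatives. Abcb10 ranged from -1.43 to -0.09. Some called genes came under 1.5-fold elsewhere: Cd34 (-0.008) and Fos (-0.34) by mean CP10k, Bbc3 (0.578) at 10 CP10k, Cdkn2c (-0.50) after thinning, Hbb-bt (0.098) at 6 to under 12 CP10k, Pink1 (0.543) and Ldhb (0.546) with TMM scaling. Depth limits genes under about 50 UMIs, and the knock-in cells were shallower.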

Other observations

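Mitophagy genes, which clear mitochondria from reticulocytes later in red cell maturation, were close between the libraries. Of 19 measured, 1 was higher and none lower, against backgrounds of 7.73% and 4.63%. The higher gene was Pink1, at 31.7 CPM in the knock-in and 21.1 CPM in wild type, a ratio of 0.588 (0.41 to 0.77), at the edge of 1.5-fold. It came under that size with TMM scaling, at 0.543, and in cells of 5000 to 15000 UMIs, at 0.26. Bnip3l, the mitophagy receptor Nix that reticulocytes need, had 168 and 132 CPM, a ratio of 0.35 (0.28 to 0.42). Of 5 measured genes that move or break down heme, none differed by 1.5-fold. Blvrb, a biliverdin reductase, had 933 and 1060 CPM, and Slc48a1, a heme transporter of endosomes, had 88.8 and 69.9 CPM.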
